A study of Saccharomyces cerevisiae with 23 samples.

Results

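The introns described here lie in genes for proteins of the small ribosomal subunit of budding yeast, Saccharomyces cerevisiae. They were chosen by gene name: 38 small-subunit genes were named, leaving out the RPS9 and RPS14 pairs and RPS22B, and the introns of 37 of them were found among the 284 introns measured in the series. RPS3 was among the genes named and has no row in the tables used. All 37 introns passed the filter on counts, as did 265 introns in all, and 34 of the 37 form 17 pairs of A and B copies of the same protein. RPS13, RPS8A and RPS25A stand without a partner, since RPS8B and RPS25B were measured but not named. The 13 introns of genes for proteins of the head of the subunit (among them RPS10, RPS16, RPS18, RPS19, RPS25A and RPS29) and the 24 of genes for proteins of its body and platform are counted apart below.

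The libraries came from mud1D cells, nam8D cells and wild-type cells of the BY background, each taken at 48 h, which the labels call stationary phase or saturation, and in log phase, in minimal medium with 2% glucose. Each mutant has 3 libraries at 48 h and 3 in log phase. Wild type has 2 sets, WTa with 3 libraries at 48 h and 2 in log phase and WTb with 3 and 3. A wild-type value is the mean of both sets unless a set is named. Where a wild-type mean has an SD with n = 6 or n = 5, it pools the libraries of both sets. That SD includes the difference between the sets. The labels do not say whether replicates were separate cultures, so p-values measure the spread between these libraries, which may be technical, and the strain names in the labels differ within a set and recur across genotypes. Spliced MUD1 RNA, the check of the mud1D label, was listed in 1 of the 6 mud1D libraries, with a count of 1, against counts of 1328 to 5543 in the other libraries. NAM8 has no row and was not checked. Library totals ran from 3343811 to 12068685 counts, and the 37 introns took 27.9% to 39.0% of a library.

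The small subunit binds the messenger RNA and reads its codons, and its proteins are made in proportion to the other parts of the ribosome. In budding yeast most ribosomal proteins are encoded by a pair of duplicated genes. Few yeast genes have an intron, but genes for ribosomal proteins often do, and their transcripts are among the most abundant that the spliceosome handles. Splicing begins when the U1 particle pairs with the start of the intron. Mud1 is the yeast relative of the A protein of the human U1 particle, and Nam8 is a U1 protein related to human TIA-1 that helps at weak sites and is needed for splicing of several meiotic transcripts. Multiplexed primer extension sequencing copies RNA from a primer placed downstream of each intron, so that a read shows whether the intron is still there (premature) or gone (mature). The premature share is the premature count as a percent of both counts. It cannot tell apart slower splicing, a longer life of the unspliced RNA and a shorter life of the spliced RNA.

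Of the 37 introns, 31 have a coding intron in the RefSeq annotation of build R64, the build the submitters name. Their lengths ran from 256 to 551 bases, with a median of 401, against a median of 96 bases in genes that do not encode ribosomal proteins. The other 6 (RPS8A, RPS25A, RPS26A, RPS26B, RPS29A and RPS29B) have none annotated within the coding sequence and are given without coordinates. The first 6 bases were GTATGT in 22 of the 31, GTACGT in 6 (among them RPS19A, RPS19B, RPS21B, RPS30A and RPS30B) and GTATGA in 3 (RPS6A, RPS11A and RPS11B). GTATGT opened 70.97% of the members' introns and 75.42% of all 240 annotated single introns of the series. The branch site TACTAAC, searched on the transcribed strand, stood in 30 of the 31 and was not found as these letters in RPS21A. It stood in 96.77% of the members' introns and 82.5% of all annotated single introns.

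The copies of a pair share little intron sequence. Over 15 pairs with both introns annotated, aligned introns were 46.91% to 53.59% identical, while the first 60 bases of the downstream exon differed at 1 to 15 positions with a median of 3. The sources used here do not say how reads were divided between copies. The 5′ ends of 4 pairs are shown as a description, and a link between them and the changes below was not tested. RPS21 and RPS27 changed most unequally at 48 h in wild type, and the RPS24 copies changed unequally in the mutants. The copies of RPS21 and of RPS6 open with different bases. Each sequence runs from 10 bases before the intron into the intron, with the first 6 bases of the intron in capitals.
RPS21A: gggccaattaGTATGTtcgagaaatctata
RPS21B: gggtcaattaGTACGTaaattatagcagat
RPS27A: tcccaaaatgGTATGTtagtatccaataaa
RPS27B: gatcaatatgGTATGTgaaagagatattaa
RPS24A: agcagaaatgGTATGTtaaaaagtgctcag
RPS24B: aataaaaatgGTATGTcgaacttgtactga
RPS6A: catcatgaagGTATGAtttatgatactatt
RPS6B: catcatgaagGTATGTaatatcacccaaat
They are the RefSeq sequence of build R64 at chrXI:551671-551700 on the plus strand (RPS21A), chrX:157230-157259 on the minus strand (RPS21B), chrXI:158606-158635 on the plus strand (RPS27A), chrVIII:148647-148676 on the minus strand (RPS27B), chrV:306316-306345 on the plus strand (RPS24A), chrIX:232347-232376 on the minus strand (RPS24B), chrXVI:378370-378399 on the minus strand (RPS6A) and chrII:592749-592778 on the minus strand (RPS6B).

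The 3′ ends of the same introns, from 5 bases before the branch site to the end of the intron, have the branch site and the last 3 bases in capitals. RPS21A is left out for want of an exact TACTAAC.
RPS21B: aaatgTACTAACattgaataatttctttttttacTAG
RPS27A: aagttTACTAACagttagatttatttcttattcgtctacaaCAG
RPS27B: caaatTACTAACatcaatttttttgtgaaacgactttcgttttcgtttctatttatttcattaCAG
RPS24A: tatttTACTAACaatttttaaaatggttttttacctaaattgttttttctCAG
RPS24B: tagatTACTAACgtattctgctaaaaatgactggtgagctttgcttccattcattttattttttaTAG
RPS6A: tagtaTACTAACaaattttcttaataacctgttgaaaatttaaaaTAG
RPS6B: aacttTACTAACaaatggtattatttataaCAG
They lie at chrX:156790-156826 (RPS21B), chrXI:158923-158966 (RPS27A), chrVIII:148117-148182 (RPS27B), chrV:306739-306791 (RPS24A), chrIX:231958-232025 (RPS24B), chrXVI:377996-378043 (RPS6A) and chrII:592417-592449 (RPS6B), on the strands given above. From the branch A to the end of the intron the distance was 33 bases in RPS27A and 55 in RPS27B, 42 in RPS24A and 57 in RPS24B, and 37 in RPS6A and 22 in RPS6B. Over the 30 introns it ran from 19 to 82 bases with a median of 39.

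In mud1D cells 35 of 37 introns were retained more at 48 h than in log phase and none less. The median change of log2 premature over mature was 2.11, against 1.08 over all 265 introns. At an adjusted p under 0.05 in edgeR's quasi-likelihood test, 64.5% of all introns were called higher and 15.8% lower, which are the shares to read the members' counts against. In nam8D cells all 37 rose, by a median of 1.92 against 1.10 over all introns, where 71.3% were called higher and 9.43% lower. After each library was centred on its median intron, limma called 34 members higher in mud1D, with 2 lower, and 24 higher in nam8D, with 3 lower. The 2 lower in mud1D were RPS29B, at -0.61, and RPS21B, at -0.53. In edgeR no member was lower in either mutant, and none was lower at an unadjusted p under 0.05. DESeq2 called 35 higher in mud1D and 36 in nam8D and 0 lower in either. In mud1D 12 of 13 head members and 23 of 24 body and platform members rose, and the share of the median member was 1.68% ± 0.144 at 48 h and 0.359% ± 0.0409 in log phase (SD, n = 3 each). In nam8D it was 1.68% ± 0.205 at 48 h and 0.411% ± 0.0299 in log phase (SD, n = 3 each). RPS21B, at 0.24 ± 0.12, and RPS29B, at 0.15 ± 0.14, were the 2 members that did not pass in mud1D.

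Head members with the largest mutant changes were RPS18B and RPS19A. Rps18 contacts the transfer RNA in the peptidyl site from the head, and the human counterpart of Rps19 is mutated in Diamond-Blackfan anaemia. RPS18B (YML026C) was at 0.576%, 0.645% and 0.577% at 48 h in mud1D against 0.0678%, 0.0598% and 0.0770% in log phase, a log2 change of 3.14 ± 0.18 (edgeR adjusted p = 7.7e-18). In nam8D it was at 0.324%, 0.490% and 0.526% at 48 h against 0.0593%, 0.0667% and 0.0559% in log phase, a change of 2.86 ± 0.18. The conditions did not overlap in either mutant. RPS19A (YOL121C) was at 2.7%, 2.27% and 2.36% at 48 h in mud1D against 0.251%, 0.299% and 0.346% in log phase, and at 2.23%, 3.39% and 2.98% at 48 h in nam8D against 0.425%, 0.384% and 0.545% in log phase. Its log2 change was 3.07 ± 0.17 in mud1D and 2.7 ± 0.16 in nam8D.

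Rps0 is a platform protein needed in the last steps of small-subunit maturation, and Rps6 is phosphorylated downstream of the TOR pathway. Among body and platform members RPS0B (YLR048W) changed most, by 3.59 ± 0.17 in mud1D and 2.88 ± 0.17 in nam8D. Its shares were 0.505%, 0.580% and 0.729% at 48 h in mud1D against 0.0440%, 0.0425% and 0.0646% in log phase, and 0.338%, 0.462% and 0.425% at 48 h in nam8D against 0.0476%, 0.0499% and 0.0694% in log phase. RPS0A rose in mud1D by 2.93 ± 0.20 and in nam8D by 2.43 ± 0.19, with all 48 h shares between 0.375% and 0.734% and all log-phase shares between 0.0780% and 0.117%. RPS6B (YBR181C) reached 6.72%, 7.15% and 8.07% at 48 h in mud1D against 0.759%, 0.788% and 0.967% in log phase, and 4.11%, 5.67% and 4.99% at 48 h in nam8D against 0.610%, 0.766% and 0.899% in log phase. Its changes were 3.23 ± 0.15 and 2.76 ± 0.15. RPS4B, for a protein of the body, and RPS21A rose by 2.79 ± 0.14 and 2.79 ± 0.16 in nam8D and by 2.65 ± 0.14 and 2.53 ± 0.17 in mud1D.

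In wild type 34 of the 37 introns were retained more at 48 h than in log phase and none less. The median change of log2 premature over mature was 1.04, against 0.29 over all introns, of which edgeR called 51.7% higher and 29.1% lower. No member was lower at an unadjusted p under 0.05 in edgeR either, and DESeq2 also called 34 higher and 0 lower. In the head list 12 of 13 rose, with a median of 1.06, and in the body and platform list 22 of 24, with a median of 0.99. The premature share of the median member averaged 0.802% ± 0.201 at 48 h (SD, n = 6) and 0.380% ± 0.0372 in log phase (SD, n = 5). With WTa alone 27 members were called higher, and with WTb alone 33. With centred libraries 30 were called higher and 2 lower, 1 of them RPS21B at -0.31, while RPS8A, RPS24A, RPS24B and RPS29B did not pass.

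**Figure D1:**
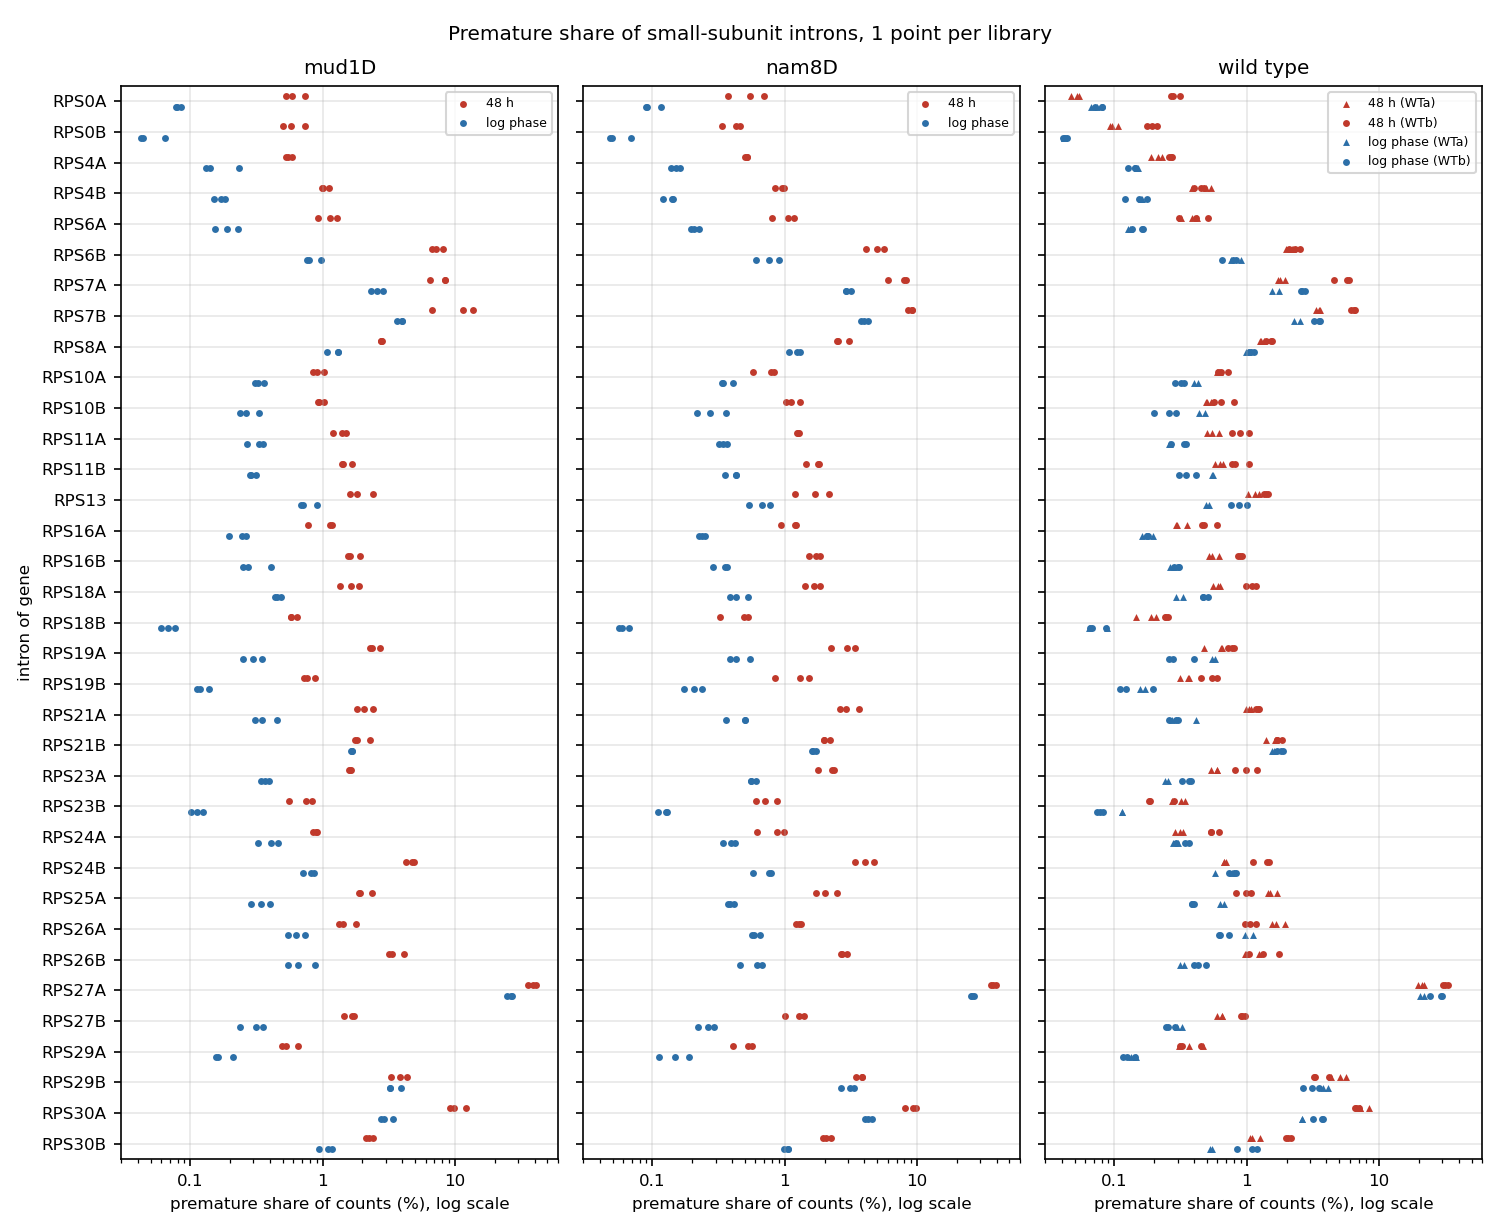
Premature share of 35 of the 37 introns (log scale, percent of premature plus mature counts), 1 point per library, in mud1D, nam8D and wild type, with 48 h in red and log phase in blue; in wild type, triangles are WTa and circles WTb. RPS27A sits far above the other introns, at 19.8% to 40.8% in 48 h libraries, and RPS0A of WTa at 48 h lies below its log-phase points.

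Of the head members, RPS19B was among the 6 largest wild-type changes. RPS19B (YNL302C) was at 0.358%, 0.368% and 0.314% premature in WTa and 0.447%, 0.594% and 0.549% in WTb at 48 h, against 0.171% and 0.157% in WTa and 0.122%, 0.111% and 0.195% in WTb in log phase. All 48 h libraries were above all log-phase libraries, and the log2 change was 1.50 ± 0.14 (SE), adjusted p = 6.2e-12 in edgeR. The A copy changed by 0.69 ± 0.12 (edgeR adjusted p = 6.3e-06). This rested on WTb: with WTa alone RPS19A changed by 0.06, as its 48 h shares of 0.650%, 0.637% and 0.478% overlapped the log-phase shares of 0.572% and 0.545%.

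Of the body and platform proteins, Rps21, which binds next to Rps0 on the platform side, had the largest change of any member in wild type, in its A copy. RPS21A (YKR057W) was at 1.08%, 0.987% and 1.03% in WTa and 1.21%, 1.24% and 1.18% in WTb at 48 h, against 0.417% and 0.271% in WTa and 0.291%, 0.261% and 0.305% in WTb in log phase. The groups did not overlap, and the log2 change was 1.84 ± 0.13 (SE), with an edgeR adjusted p of 1.2e-14. RPS21B (YJL136C) did not pass, at -0.03 ± 0.09. Its shares lay between 1.39% and 1.85% at 48 h and between 1.54% and 1.87% in log phase, on the same level in either set.

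RPS0B rose in wild type by 1.72 ± 0.13 (edgeR adjusted p = 7.4e-14). Its shares were 0.093%, 0.107% and 0.0966% in WTa and 0.211%, 0.177% and 0.192% in WTb at 48 h, against 0.0413% and 0.0414% in WTa and 0.0424%, 0.0435% and 0.0411% in WTb in log phase. Both sets rose, WTb by more. RPS0A stood on opposite sides of its log-phase level in the sets: it was at 0.0474%, 0.0522% and 0.0543% in WTa at 48 h against 0.0663% and 0.0737% in log phase, and at 0.266%, 0.314% and 0.279% in WTb at 48 h against 0.0811%, 0.0802% and 0.0710% in log phase. With WTa alone its log2 change was -0.43 and did not pass, and those 48 h values rest on 12 to 17 premature reads a library.

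RPS26B (1.69 ± 0.14), RPS4B (1.56 ± 0.11) and RPS6B (1.51 ± 0.11) were the other members among the 6 largest wild-type changes, all with edgeR adjusted p-values at or below 3.0e-13. Rps26 sits where the messenger RNA leaves the subunit. RPS6B averaged 2.23% ± 0.20 at 48 h (SD, n = 6) and 0.789% ± 0.093 in log phase (SD, n = 5). RPS27A (YKL156W), which like RPS21B was among the 3 members that did not pass, was the least spliced of all members in log phase and changed by 0.12 ± 0.09. It was at 21.0%, 22% and 19.8% in WTa and 33.1%, 30.2% and 31.8% in WTb at 48 h, against 22% and 20.4% in WTa and 30.1%, 29.3% and 24.2% in WTb in log phase, so that the sets differed more than the conditions.

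**Figure D2:**
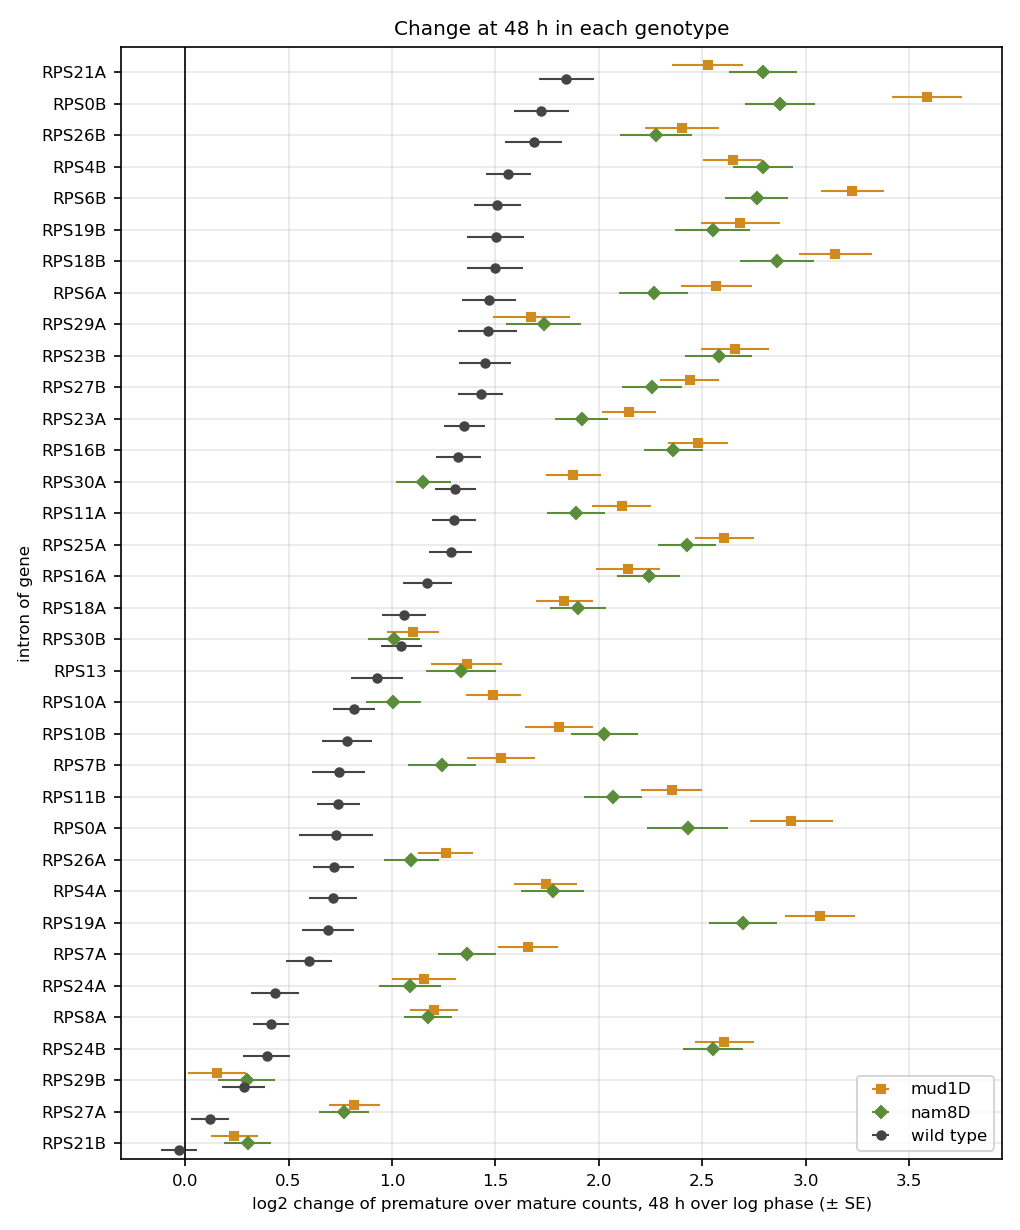
Log2 change of premature over mature counts, 48 h over log phase, with its SE, for 35 of the 37 introns in mud1D, nam8D and wild type, ordered by the wild-type value. The mutants' points lie to the right of the wild-type points for most introns, and RPS0B in mud1D is farthest right at 3.59. RPS29B and RPS21B lie near 0, at 0.30 or less in every genotype, but both were called higher in nam8D and RPS29B also in wild type.

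At 48 h the mutants retained these introns more than wild type did, but so they did with introns at large. In mud1D over wild type 35 of 37 members were higher and 0 lower, with a median of 1.08, against 90.6% higher, 1.13% lower and a median of 1.11 over all introns. In nam8D over wild type 34 were higher and 0 lower, with a median of 1.04, against 88.3% higher, 1.51% lower and a median of 1.01 over all introns. No member was lower at an unadjusted p under 0.05, and DESeq2 called 35 and 34 higher and 0 lower. With centred libraries in limma the mud1D split was 16 members above wild type and 7 below, and the nam8D split 16 above and 8 below. RPS29B was one member that did not pass in either mutant, with -0.15 ± 0.12 in mud1D and -0.20 ± 0.12 in nam8D. RPS26A, at 0.15 ± 0.11 and -0.09 ± 0.11, was the other such member. Against WTa alone RPS29B was called lower in mud1D (-0.42) and nam8D (-0.46), and RPS26A in nam8D (-0.43), while against WTb alone RPS26A was called higher in mud1D (0.50).

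The response to 48 h itself was larger than the wild-type response in 32 of 37 members in mud1D (64.9% of all introns, 4.91% lower, with medians of 0.97 for members and 0.72 over all) and in 31 in nam8D (75.8%, 3.02% lower, with medians of 0.83 and 0.81). With centred libraries 7 members responded more and 7 less than wild type in nam8D. edgeR called 0 members lower, none at an unadjusted p under 0.05, and DESeq2 called 32 and 31 higher and 0 lower. Both contrasts share the wild-type libraries. The largest differences were RPS19A, RPS24B and RPS0A in both mutants. RPS19A responded by 2.38 ± 0.21 more in mud1D and by 2.01 ± 0.20 more in nam8D. In WTb its shares were 0.719%, 0.803% and 0.771% at 48 h against 0.258%, 0.278% and 0.402% in log phase. The shares of WTa overlapped between conditions, so both differences are smaller against WTb than against WTa. RPS24B (YIL069C), for a body protein that in humans is also mutated in Diamond-Blackfan anaemia, responded by 2.21 ± 0.18 more in mud1D and 2.16 ± 0.18 more in nam8D. Its shares were 4.25%, 4.77% and 4.90% at 48 h in mud1D against 0.709%, 0.814% and 0.853% in log phase, and 3.37%, 4.74% and 4.03% at 48 h in nam8D against 0.789%, 0.581% and 0.763% in log phase. In wild type they were 0.668%, 0.671% and 0.697% in WTa and 1.41%, 1.12% and 1.47% in WTb at 48 h, against 0.579% and 0.776% in WTa and 0.831%, 0.798% and 0.732% in WTb in log phase. No 48 h library of wild type reached any 48 h library of the mutants. The wild-type change of 0.39 ± 0.11 was 0.02 with WTa alone.

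RPS0A responded by 2.20 ± 0.27 more in mud1D and 1.70 ± 0.26 more in nam8D, but with WTb alone as wild type the mud1D value was 1.04 (edgeR adjusted p = 0.0048) and the nam8D value 0.54, which did not pass (edgeR adjusted p = 0.11). With WTa alone they were 3.36 and 2.86. RPS0B (1.86 ± 0.22), RPS6B (1.72 ± 0.19) and RPS18B (1.64 ± 0.23) completed the 6 largest in mud1D. In nam8D they were RPS18B (1.36 ± 0.23), RPS11B (1.33 ± 0.17, or 0.77 with WTb alone) and RPS6B (1.25 ± 0.19). Members that did not pass in either mutant were RPS13 (0.43 and 0.41), RPS29A (0.21 and 0.27), RPS29B (-0.13 and 0.01) and RPS30B (0.06 and -0.04), giving the mud1D and then the nam8D value. RPS21B did not pass in mud1D (0.27), nor did RPS10A (0.19) and RPS30A (-0.15) in nam8D.

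In log phase 14 members differed from wild type in mud1D and 13 in nam8D. In mud1D over wild type 10 were higher and 4 lower, with a median of 0.14, against 47.9% higher, 7.92% lower and a median of 0.31 over all introns. In nam8D over wild type 11 were higher and 2 lower, with a median of 0.17, against 30.6% and 7.55% and a median of 0.17 over all introns. The counts hung on the wild-type set: with WTb alone as wild type the calls fell to 2 members in mud1D and 5 in nam8D, all higher, and with WTa alone they were 17 and 16. With centred libraries in limma 1 member was higher and 18 lower in mud1D. Without mud1D log replicate 3 the mud1D calls were 4 higher and 5 lower, and without WTa log replicate 3 the nam8D calls numbered 8. RPS26B (YER131W) was highest in mud1D, by 0.87 ± 0.16, at 0.549%, 0.653% and 0.878% against 0.312% and 0.337% in WTa and 0.401%, 0.428% and 0.490% in WTb. RPS23A (YGR118W), for a protein of the decoding centre, was highest in nam8D, by 0.95 ± 0.12, at 0.608%, 0.552% and 0.559% against 0.253% and 0.241% in WTa and 0.366%, 0.325% and 0.382% in WTb. In both cases every mutant library was above every wild-type library.

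The larger premature share at 48 h came with more premature counts as well as with fewer mature ones, both as counts relative to the library total (CPM). Premature CPM was higher at 48 h for all 37 members in mud1D, in nam8D and in the mean of both wild-type sets, with median log2 differences of 1.75 in mud1D, 1.70 in nam8D and 0.63 in wild type. Mature CPM was lower for 27 in mud1D, 26 in nam8D and 31 in wild type, with medians of -0.35, -0.21 and -0.28. The sets differed: premature CPM was higher for all 37 in WTb and for 32 in WTa, where it was lower for RPS0A (-0.78), RPS11B (-0.62), RPS24B (-0.27), RPS24A (-0.04) and RPS7A (-0.01). These are means per group with no test, and the same counts were not made over all introns. They rest on library totals as the scale. On it the summed counts of the median intron changed by 0.50 in mud1D, 0.37 in nam8D and 0.43 in wild type. With TMM scaling those values were 0.18, 0.11 and 0.18. The signs of the smallest premature differences, such as RPS8A in wild type (0.05) and RPS13 in mud1D (0.13), thus depend on the scale. Summed over members, premature CPM was 5556 ± 663 at 48 h and 1822 ± 166 in log phase in mud1D, and 5784 ± 550 and 1884 ± 106 in nam8D (SD, n = 3 each). RPS0B had a premature difference of 3.03 and a mature one of -0.57 in mud1D. RPS21B and RPS27A had higher mature CPM at 48 h in every genotype. In nam8D the mature differences were 0.96 and 0.92, beside premature differences of 1.26 and 1.68. In wild type the mature differences were 0.43 and 0.29, beside premature differences of 0.40 and 0.41. RPS30A and RPS30B, for a body protein whose human counterpart is made fused to a ubiquitin-like protein, had higher mature and premature CPM at 48 h in every genotype.

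**Figure D3:**
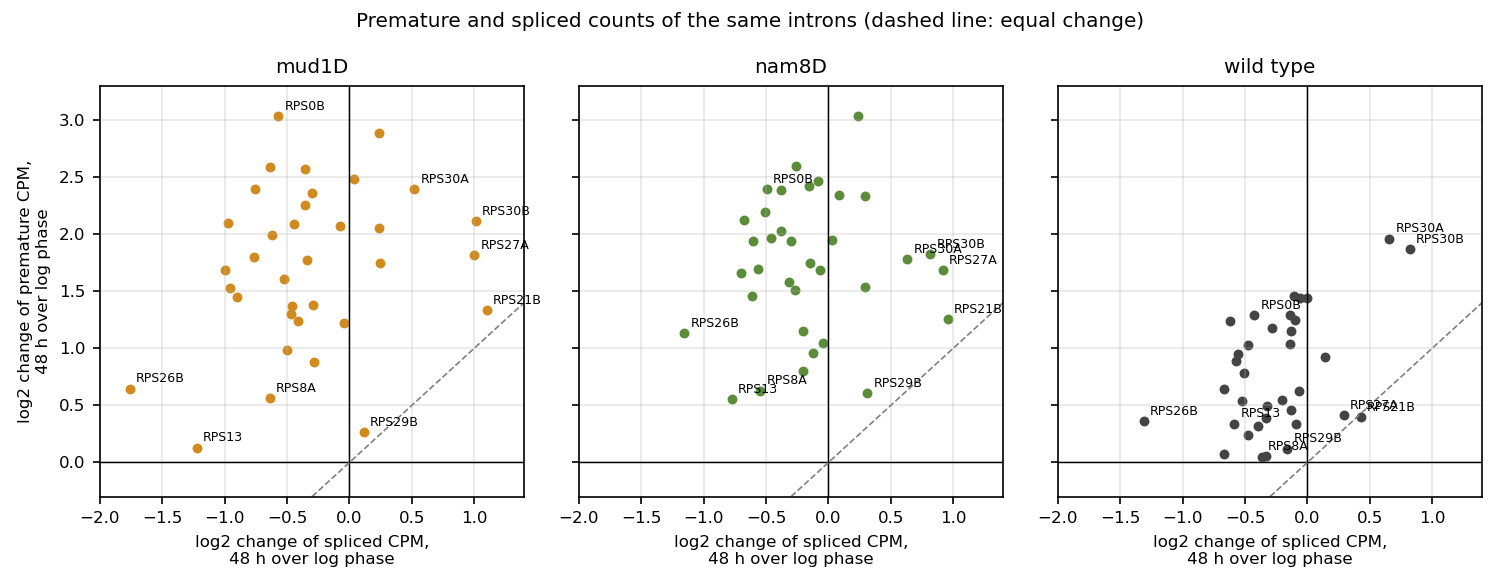
Log2 difference of premature CPM (y) against that of spliced, or mature, CPM (x), 48 h over log phase, for 35 of the 37 introns in mud1D, nam8D and wild type, with both wild-type sets averaged and no error shown; on the dashed line both would change alike. Every point is above 0 on the y axis, and most lie left of 0 on the x axis, with RPS26B farthest left at -1.76 in mud1D, -1.16 in nam8D and -1.31 in wild type.

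The copies of a protein were not retained alike even in wild-type log phase. The premature to mature ratio of the copies differed in 15 of 17 pairs, against 88.9% of the 45 pairs of ribosomal protein genes tested. RPS27 differed most, with copy A above copy B by 6.82 ± 0.09 on the log2 scale. RPS27A averaged 25.2% ± 4.3 and RPS27B 0.282% ± 0.031 (SD, n = 5). Rps27 and Rps29 are zinc-binding proteins, and RPS29 differed the other way, with copy A minus copy B at -4.76 ± 0.09 on the log2 scale and shares of 0.133% ± 0.012 in RPS29A and 3.44% ± 0.57 in RPS29B (SD, n = 5). Next came RPS6 (-2.50), RPS21 (-2.45), RPS18 (2.38) and RPS30 (2.05), where a negative value means that copy A was retained less. RPS10 (0.09) and RPS4 (-0.10) did not pass.

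At 48 h the copies changed unequally in 14 of 17 pairs in mud1D, 11 in nam8D and 11 in wild type. The shares of all 45 pairs called were 75.6%, 71.1% and 71.1%, so that unequal change was as common among ribosomal protein pairs in general. The copy retained more in wild-type log phase had the smaller change in 10 of 17 pairs in mud1D, 10 in nam8D and 11 in wild type. These counts are only a description. The wild-type log-phase libraries that pick this copy also enter the wild-type change, which alone favours such a count. Pairs outside the members were not counted this way.

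RPS21 changed most unequally in each genotype, with copy A rising above copy B by 2.29 ± 0.17 in mud1D, 2.49 ± 0.16 in nam8D and 1.88 ± 0.13 in wild type. RPS21A reached 1.82%, 2.06% and 2.40% at 48 h in mud1D against 0.347%, 0.308% and 0.454% in log phase, while RPS21B was at 2.27%, 1.75% and 1.83% at 48 h against 1.67%, 1.62% and 1.65% in log phase. In nam8D RPS21A reached 2.63%, 3.63% and 2.92% and was above RPS21B, at 2.19%, 1.97% and 1.98%, in each 48 h library. In log phase RPS21A was below RPS21B in every library of every genotype. These are the copies shown above with GTATGT and no exact TACTAAC in RPS21A, and with GTACGT and TACTAAC in RPS21B.

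RPS27 and RPS29 moved in the direction that narrowed their gaps. The change of RPS27A minus that of RPS27B was -1.62 ± 0.15 in mud1D, -1.49 ± 0.15 in nam8D and -1.31 ± 0.12 in wild type. RPS27B was at 1.45%, 1.66% and 1.71% at 48 h in mud1D against 0.237%, 0.313% and 0.355% in log phase, while RPS27A was at 35.9%, 38.6% and 40.8% against 26.8%, 26.7% and 24.9%. For RPS29, for a head protein, the value was 1.52 ± 0.17 in mud1D, 1.43 ± 0.17 in nam8D and 1.18 ± 0.13 in wild type. RPS29A averaged 0.555% ± 0.081 at 48 h and 0.175% ± 0.029 in log phase in mud1D (SD, n = 3 each), and RPS29B 3.82% ± 0.53 and 3.45% ± 0.41.

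**Figure D4:**
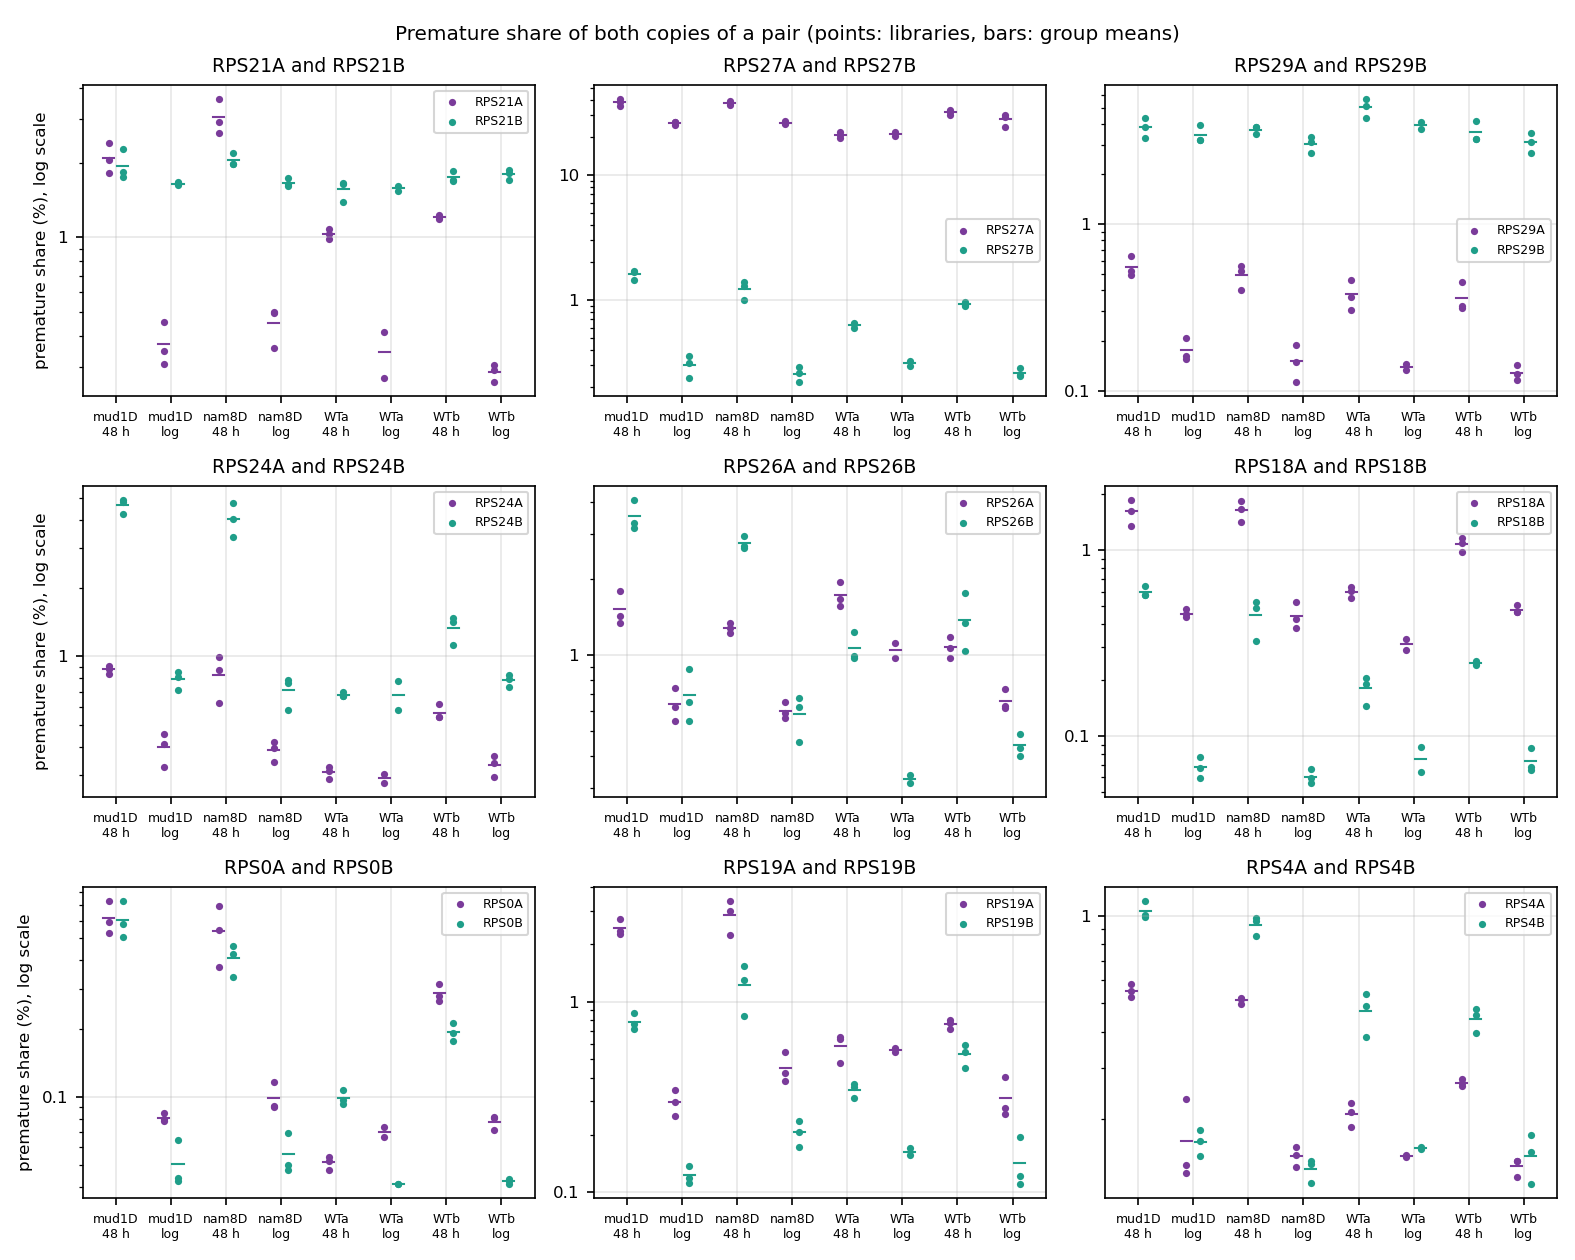
Premature share (percent, log scale) of copy A (purple) and copy B (green) of 9 pairs in the 8 groups, with 1 point per library and a bar at each group mean. RPS21A is near or above RPS21B at 48 h in the mutants and below it in wild type and in log phase, RPS24B leaves RPS24A behind at 48 h in the mutants, and RPS27A stays far above RPS27B throughout.

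RPS26, RPS4, RPS18 and RPS24 changed more in copy B in both mutants. RPS26 differed by -1.14 ± 0.16 in mud1D, -1.18 ± 0.15 in nam8D and -0.97 ± 0.12 in wild type. Its copy B reached 3.17%, 3.33% and 4.10% at 48 h in mud1D against 0.549%, 0.653% and 0.878% in log phase, above RPS26A at 1.33%, 1.43% and 1.78% at 48 h. RPS4 differed by -0.90 ± 0.16, -1.02 ± 0.16 and -0.84 ± 0.12 in the same order, although the difference between its copies did not pass in wild-type log phase. RPS18 differed by -1.31 ± 0.18, -0.96 ± 0.18 and -0.44 ± 0.14, and the wild-type value was -0.31 and did not pass with WTa alone. For RPS0 the wild-type value of -0.99 ± 0.20 became -0.30 and did not pass with WTb alone, and it was -1.69 with WTa alone.

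In RPS24 the unequal change did not pass in wild type, at 0.04 ± 0.12 (edgeR adjusted p = 0.80), and passed in the mutants, at -1.45 ± 0.16 in mud1D and -1.47 ± 0.16 in nam8D. RPS24A was at 0.839%, 0.909% and 0.884% at 48 h in mud1D, against 0.324%, 0.410% and 0.456% in log phase, well under the RPS24B values given above. The difference between genotypes of this unequal change, a comparison added after the values were seen, was -1.49 ± 0.20 for mud1D (edgeR adjusted p = 6.4e-10) and -1.50 ± 0.20 for nam8D (edgeR adjusted p = 6.3e-10). By this comparison 7 of 17 pairs differed from wild type in mud1D and 9 in nam8D, against 44.4% and 48.9% of all pairs. RPS19 was on the other side, at 1.20 ± 0.18 in mud1D and 0.96 ± 0.17 in nam8D. Its copy B changed more in wild type, with copy A minus copy B at -0.81 ± 0.11. Copy A changed more in mud1D, at 0.387 ± 0.145, and the nam8D value of 0.15 ± 0.13 did not pass. The protein of RPS10 lies at the entry of the messenger RNA in the head. RPS10 differed by -1.05 ± 0.19 in nam8D and by -0.35 ± 0.19 in mud1D, where it did not pass. Its wild-type value, 0.03 ± 0.11, averaged sets that went opposite ways. In WTa premature CPM changed by 0.38 in each copy, and mature CPM by -0.19 in RPS10A and 0.24 in RPS10B. In WTb the premature changes were 0.61 and 1.47 and the mature ones -0.46 and 0.04. The comparison between genotypes was not run with a single wild-type set for any pair.

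**Figure D5:**
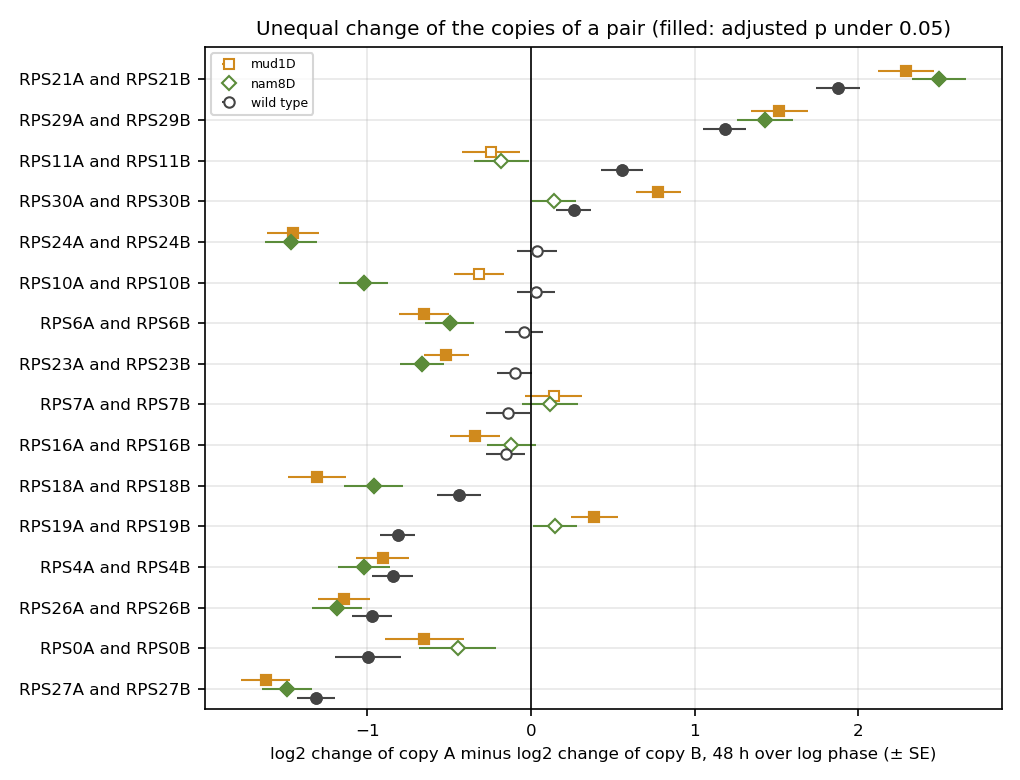
Log2 change of copy A minus that of copy B, 48 h over log phase, with its SE, for 16 of the 17 pairs in mud1D, nam8D and wild type; filled symbols passed at an adjusted p under 0.05 and open symbols did not. RPS21 is farthest right, between 1.88 and 2.49, RPS27 is farthest left in each genotype, and RPS24 has the mutants near -1.5 and wild type at 0.04.

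Between genotypes in log phase, unequal copies were called in 6 of 17 pairs in mud1D (46.7% of all pairs) and in 7 in nam8D (35.6%; 4 without nam8D log replicate 2 and 3 without replicate 3), and at 48 h in 8 in mud1D (62.2%) and 9 in nam8D (64.4%). With WTb alone as wild type the log-phase counts were 2 in each mutant, and with WTa alone 11 in mud1D and 9 in nam8D. RPS26 passed in each of these, with copy A minus copy B between -1.43 and -1.09. Its size depended on the wild-type set: in log phase it was -0.70 in mud1D and -0.54 in nam8D with WTb alone and -1.81 and -1.65 with WTa alone, and at 48 h -0.90 and -0.78 with WTb alone and -1.95 and -1.84 with WTa alone. In log phase the RPS26 copies also differed between the wild-type sets, with RPS26A at 1.11% and 0.971% in WTa and at 0.618%, 0.631% and 0.734% in WTb.

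The spliced product shifted between copies as well. The ratio of mature counts of copy A to copy B changed at 48 h in 14 of 17 pairs in mud1D, 12 in nam8D and 14 in wild type, against 82.2%, 80.0% and 82.2% of all pairs. RPS21A made up 23.2% ± 1.0 of the mature RPS21 counts at 48 h in mud1D and 46.9% ± 1.5 in log phase (SD, n = 3 each). In nam8D it was 22.6% ± 1.7 at 48 h and 47.6% ± 2.0 in log phase (SD, n = 3 each). The wild-type sets differed. At 48 h it was 23.6% ± 0.8 in WTa and 31.3% ± 1.1 in WTb (SD, n = 3 each). In log phase it was 39.0% ± 0.5 in WTa (SD, n = 2) and 48.5% ± 1.6 in WTb (SD, n = 3). The mutants were thus near WTa at 48 h and near WTb in log phase. The log2 change of the ratio was -1.55 ± 0.07 in mud1D, -1.64 ± 0.07 in nam8D and -1.05 ± 0.05 in wild type. RPS26 shifted towards copy A, by 1.72 ± 0.08 in mud1D, 1.11 ± 0.08 in nam8D and 0.92 ± 0.06 in wild type, and RPS27 likewise, by 0.97 ± 0.07, 0.83 ± 0.07 and 0.43 ± 0.05. RPS24 did not pass in mud1D (0.07 ± 0.06) or nam8D (-0.03 ± 0.06), the genotypes in which its copies were retained most unequally.

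Relative to the other targets, most members had fewer counts in all at 48 h. With TMM scaling, 30 of 37 were lower and 4 higher in mud1D, 28 lower and 4 higher in nam8D, and 32 lower and 3 higher in wild type. Over all introns 41.5%, 41.1% and 38.1% were lower and 50.2%, 47.5% and 52.5% higher. Medians were -0.63, -0.39 and -0.53 for members against 0.18, 0.11 and 0.18 over all. With library totals as the scale the median of all introns moved to 0.50, 0.37 and 0.43, and members then split as 25 lower and 8 higher in mud1D, 19 and 9 in nam8D, and 25 and 6 in wild type. In bulk RNA fewer cells that hold a given RNA and less of it per cell cannot be told apart. These values are shares of the primed targets only. RPS26B fell most, by 2.01 ± 0.06 in mud1D, 1.37 ± 0.06 in nam8D and 1.55 ± 0.05 in wild type on the log2 scale. RPS30B (0.75 ± 0.08, 0.59 ± 0.08 and 0.58 ± 0.06) and RPS30A (0.34 ± 0.06, 0.46 ± 0.06 and 0.47 ± 0.05) rose in all 3 genotypes. RPS27A (0.97 ± 0.07 and 0.92 ± 0.07) rose in the mutants and was 0.08 ± 0.05 in wild type. RPS21B rose by 0.81 ± 0.06 in mud1D, 0.72 ± 0.06 in nam8D and 0.18 ± 0.04 in wild type, but its wild-type value was -0.07 with RLE size factors.

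Features of the sequence were set beside the changes only as a description. The 6 introns opening with GTACGT had median changes of 1.49 in mud1D, 1.21 in nam8D and 0.87 in wild type, against 2.14, 2.13 and 0.99 for the 22 with GTATGT and 2.35, 2.07 and 1.30 for the 3 with GTATGA. The ranges overlapped: among GTACGT introns the mud1D changes ran from 0.24 in RPS21B to 3.07 in RPS19A. Intron length and the change at 48 h had Pearson's r of -0.06 in mud1D, -0.10 in nam8D and -0.05 in wild type over 31 introns of the same libraries, and the distance from branch A to the intron's end had r of -0.14, -0.06 and -0.04 over 30.

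The members' values lay near those of the large-subunit introns. Of 59 large-subunit introns 58 rose in mud1D, 58 in nam8D and 56 in wild type, with medians of 2.26, 2.09 and 1.10. Of 161 introns of other genes 72, 88 and 41 rose and 41, 23 and 76 fell. Of the 8 introns of small-subunit genes outside the 37, 6 rose in each genotype. Their medians were 1.37 in mud1D, 1.39 in nam8D and 1.12 in wild type over all 8. Among them 1 fell in mud1D, 2 in nam8D and 1 in wild type. RPS14B, whose own protein is known to block its splicing, was lower in each, by 1.10, 0.97 and 0.45 on the log2 scale.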

How the data were processed

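RNA from 23 yeast libraries in 8 groups was measured by multiplexed primer extension sequencing. The values are counts of mature and premature reads per intron and library, as deposited by the authors, with no normalization in the tables. Per the submitters' processing notes, FastQC, fastp 0.20.0 and STAR 2.7.2b were used on build R64. The assignment of reads to copies and the use of molecular identifiers are not stated there. Every value column belonged to a sample of the series (0 did not).

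Introns with a mean count of at least 20 were tested. edgeR 4.0.16 (R 4.3.3) fitted mature and premature counts as 2 columns per library, with all groups in 1 quasi-likelihood model, and tested log2 premature over mature. Pairs were fitted with 4 columns per library, the ratio of mature counts of the copies with 2, and abundance on summed counts with TMM. The wild-type value is the mean of both sets. Tests were two-sided, with Benjamini-Hochberg adjustment over all introns or pairs and a threshold of 0.05. The models were first tested on simulated data. DESeq2 1.42.0 and limma 3.58.1 (pseudocounts 0.5 and 5), other filters and scalings, a single wild-type set, a replicate block and libraries left out were alternatives. Replicates differed by more than sampling noise, so none was merged.

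The members and lists were chosen with earlier results of these data known. The text names, by rule, the members with the largest called changes whose libraries do not overlap (6 a direction), the 8 pairs with the most unequal change, the 6 with the largest change of balance and the 4 members with the largest abundance changes a direction; other names were chosen after their values were seen. One pair of members entered every fit and count but is not reported here.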

Additional observations from a re-analysis of the deposited data

Results flagged for a closer look

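The response to 48 h differed between a mutant and wild type by a test of the difference itself in these members, given as the log2 change in the mutant minus that in wild type. In mud1D the values were 2.38 in RPS19A, 2.21 in RPS24B, 2.20 in RPS0A, 1.86 in RPS0B, 1.72 in RPS6B and 1.64 in RPS18B. In nam8D they were 2.16 in RPS24B, 2.01 in RPS19A, 1.70 in RPS0A, 1.36 in RPS18B, 1.33 in RPS11B and 1.25 in RPS6B. Both contrasts use the same wild-type libraries.

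Single libraries stood far from the others of their genotype and condition in 3 of 74 such checks over the pooled wild-type groups, where chance gives about 1 in 20. RPS21A was at 0.417% premature in WTa log replicate 2, above the other log-phase libraries. RPS30A was at 8.43% in WTa 48 h replicate 2, and RPS10A at 0.721% in WTb 48 h replicate 3.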

How the results depend on the processing

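With libraries centred on their median intron (limma), called members numbered 23 for mud1D over wild type at 48 h, 14 for the nam8D response minus the wild-type response, and 19 for mud1D over wild type in log phase, where 18 of them were lower; RPS16A then stood at -0.0217 in that last comparison. With WTb alone as wild type, log-phase calls numbered 2 members in mud1D and 5 in nam8D, and pairs with unequal splicing 2 in mud1D and 2 in nam8D; with WTa alone, 11 pairs in mud1D. With DESeq2 or RLE size factors the wild-type abundance change of RPS21B was -0.0697. Leaving out 1 library at a time gave 9 to 14 members for mud1D and 8 to 12 for nam8D in log phase, and 3 to 8 pairs for nam8D. Without mud1D log replicate 3 the 9 were 4 higher and 5 lower. The cause of these shifts was not tested. Under the alternatives run, the other 332 counts stayed within 1.5 times the reported ones. The majority direction was compared for counts of introns only, where none of these reversed, and not for counts of pairs. Of the values of named members and pairs under the alternatives, 1779 kept their direction and passed, 21 kept their direction but did not pass, and 3 reversed.

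Libraries with the same replicate number had a median r of 0.014 over 77 pairs, from -0.308 to 0.249, with 19 above 0.1. These pairs join libraries across genotypes, sets and conditions. They cannot show whether log-phase and 48 h libraries of one genotype were paired, and the main fits used no pairing. With the replicate block 35 members were called in mud1D, 37 in nam8D and 34 in wild type for 48 h over log phase, and 15 in each mutant in log phase. Depth limited RPS0A most, with as few as 12 premature reads in a 48 h library of WTa.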
